A study of Homo sapiens with 4 samples.

Results

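The MYC locus was described here as the H3K27ac peaks on chromosome 8 from 1 Mb before to 2 Mb after the MYC gene body, which is chr8:126735434-129742951 in hg38 with GENCODE release 44. Every peak touching that window was a member, with no selection on height or width. The window held 2 of the 209 peaks in the list of MDA-MB-231 replicate 1, 86 of 43353 in MDA-MB-231 replicate 2, 73 of 46330 in Hs578T replicate 1 and 80 of 44920 in Hs578T replicate 2. MYC (ENSG00000136997.22, chr8:127735434-127742951, forward strand) has its canonical start site at 127736231. PVT1 (ENSG00000249859.14, chr8:127794526-128187101, forward strand) is a long noncoding RNA gene whose start site lies 58310 bp further on. Positions below are in kb from the MYC start site, with negative values before it.

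H3K27ac was measured by chromatin immunoprecipitation and sequencing in MDA-MB-231 and Hs578T, a pair of established triple-negative breast cancer lines, with 2 libraries per line. All 4 libraries came from cells starved for 8 h, exposed to TWEAK, a cytokine, at 10 ng/ml for 48 h, and left in a washout of 72 h according to the series description, although the paper states a longer interval. Its receptor is Fn14. Neither untreated cells nor cells fixed during TWEAK exposure were analysed here, so no value below measures an effect of TWEAK, and no value separates the response of a line from its identity.

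MYC encodes a transcription factor that pairs with MAX and drives genes of growth, ribosome production and metabolism, and its expression is raised in many tumours. The gene stands almost alone among protein-coding genes, in a broad stretch of noncoding transcripts and distant enhancers that differ between tissues. PVT1, its neighbour, is known both as a noncoding transcript that is often gained together with MYC and as the host of enhancers that contact the MYC promoter. H3K27ac, acetylation of lysine 27 of histone H3, marks active promoters and enhancers.

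The list of MDA-MB-231 replicate 1 stands apart throughout, and the other 3 lists are called the large lists. Where 3 values follow each other, they are those of the large lists, in the order MDA-MB-231 replicate 2, Hs578T replicate 1, Hs578T replicate 2. Of all protein-coding genes, 58.1%, 58.2% and 56.4% had a promoter peak. In the large lists, 5 or 6 of the 6 mesenchymal marker genes checked had a promoter peak, SPARC being the gene without one in 2 of them, and none of the 3 immune markers had one. Of 6 luminal markers, KRT8 and KRT18 had one in each large list, while ESR1, GATA3, FOXA1 and ESRP1 did not. Of 2 endothelial markers, PECAM1 had one in MDA-MB-231 replicate 2 and Hs578T replicate 1, and CDH5 had one in none of the large lists. In MDA-MB-231 replicate 1 none of these genes had one, where 0.0601% of all protein-coding genes did. The large lists separated little by line. Over all chromosomes, 94.2% and 91.2% of the peaks in the large MDA-MB-231 list had a counterpart in the first and second Hs578T list. Of the peaks in the first Hs578T list, 88.8% had one in the second and 86.4% in the large MDA-MB-231 list. Of those in the second, 93.4% had one in the first and 87.9% in the large MDA-MB-231 list. For the peaks of either Hs578T list, the other Hs578T list was thus the closer match. Lines with like peaks and a library carrying the wrong line's label cannot be told apart from these lists, so values between the lines are given by label. Sequencing depth is unknown. Intervals beside shares are 95% Wilson intervals for counting error alone, because adjacent peaks depend on each other. No p is given between the lines: with 2 lists per line, the smallest two-sided p of an exact permutation test would be 0.333.

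The window was densely marked in all 3 large lists and nearly empty in the fourth. Peaks covered 220.9 kb of it in MDA-MB-231 replicate 2, 203.9 kb in Hs578T replicate 1, 199.6 kb in Hs578T replicate 2 and 0.457 kb in MDA-MB-231 replicate 1. The 3 large lists were thus close to each other, and the mean of the Hs578T pair was 201.7 ± 3.02 kb (SD, n = 2). For MDA-MB-231 the mean was 110.7 ± 155.9 kb (SD, n = 2), a spread that comes from the list with 2 peaks. Without that list MDA-MB-231 was above Hs578T rather than below it.

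Measured against its chromosome, the window was richer in peaks. They covered 7.34%, 6.78% and 6.64% of it, against 2.47%, 2.45% and 2.25% of chromosome 8. The density was 28.6, 24.3 and 26.6 peaks per Mb, against 13.0, 12.8 and 12.5 on chromosome 8. Coverage and density were therefore both higher in the window in each large list, and no test was made of it. The typical peak was ordinary, with a median fold enrichment of 5.12, 5.46 and 4.75 in the window and 5.61, 5.12 and 4.85 over each whole list. Fold enrichment is the ratio over the local background of the same library, so only its rank within a list was compared between lists. Gene copies at the locus were not measured, and their part in these values was not tested.

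**Figure D1:**
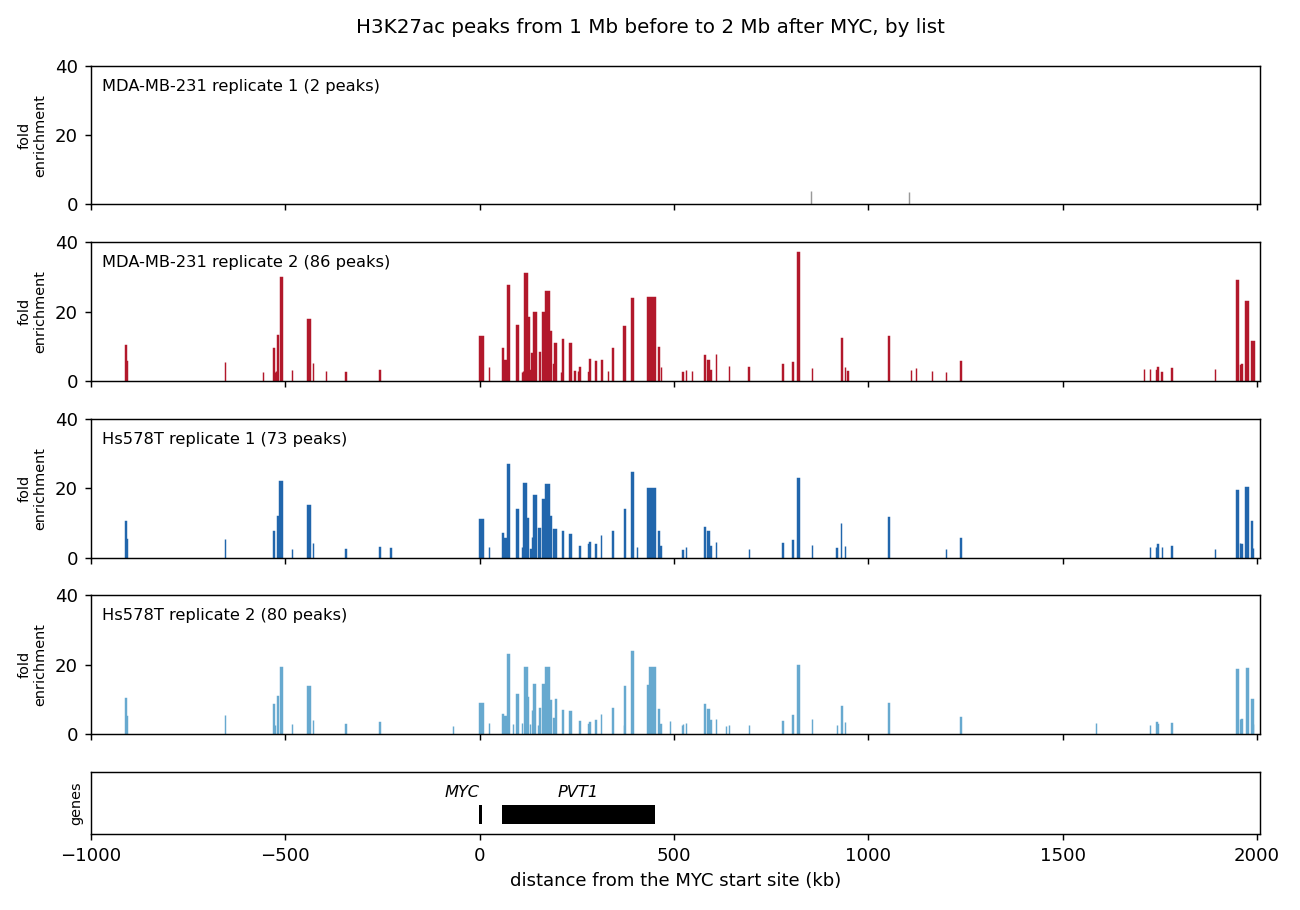
H3K27ac peaks from 1 Mb before to 2 Mb after MYC in each of the 4 lists; the horizontal axis is the distance from the MYC start site in kb and the height of a bar is the fold enrichment of a peak. MDA-MB-231 replicate 1 shows 2 low peaks, and the other lists show the same tall groups at about -512 kb, over PVT1, at 819 kb and beyond 1946 kb.

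MDA-MB-231 replicate 1 had no peak at MYC or PVT1. Its 2 window peaks were chr8:128587654-128587909, 256 bp wide with a fold enrichment of 3.80, and chr8:128840462-128840662, 201 bp wide with 3.68. Neither overlapped a peak of another list (0%, 0 to 65.8). Of all peaks of this list, 32.5%, 33.5% and 30.6% overlapped one of the respective large list, which is within that interval. In turn none of the window peaks of the large lists overlapped one of MDA-MB-231 replicate 1, as 0.136%, 0.132% and 0.127% of all their peaks did.

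A single broad peak covered 100% of the MYC gene body in each large list. It ran from 127734233 to 127743934 in MDA-MB-231 replicate 2 (9702 bp, fold enrichment 13.1), from 127734276 to 127743849 in Hs578T replicate 1 (9574 bp, 10.97) and from 127734291 to 127744221 in Hs578T replicate 2 (9931 bp, 8.81). It began 1998, 1955 and 1940 bp before the start site, so its left edge was almost the same in the 3 lists. The canonical start site of the noncoding gene CASC11, on the opposite strand, lay 266, 309 and 324 bp outside that edge, while 4.75, 4.71 and 4.70 kb of its gene record lay under the peak.

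The MYC promoter stood out by width, and its fold enrichment was nearer the middle of the promoters. Its percentile by fold enrichment was 85.2 among all peaks of MDA-MB-231 replicate 2, 81.9 in Hs578T replicate 1 and 79.0 in Hs578T replicate 2. Among the peaks at protein-coding promoters alone (11595, 11629 and 11264 genes with a peak within 1 kb of the start site), its fold percentile was 73.4, 69.2 and 67.4. Its width percentile among the same promoters was 98.3, 97.5 and 98.4, against median widths of 1792, 1897 and 1804 bp. The 3 lists gave the same order of both measures, with width far above fold enrichment.

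The 5 protein-coding genes whose promoter peaks had percentiles of fold enrichment most like those of MYC over the 3 large lists were FZD2, ARL2BP, MAP3K6, NDUFV3 and CFAP298. Their largest difference from MYC in any list ranged from 0.225 to 0.708 percentile points. Peaks at these promoters were 1632 to 3739 bp wide, so none was as wide as the MYC peak.

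Genes that act with or on the MYC protein mostly had promoter peaks too. Of 17 such genes, 13 had one in each large list (76.5%) and 0 in MDA-MB-231 replicate 1, where 58.1%, 58.2%, 56.4% and 0.0601% of protein-coding genes did. The list is short, no interval was computed for its share, and the difference from all protein-coding genes was not tested. The 4 without one in any list were MYCN and MYCL, the other MYC family members, MXI1, a MAX partner that represses, and MLXIPL, a glucose-responsive partner of MLX. Counted with these 13, MYC was in place 3, 4 and 5 of 14 by fold percentile. Above it in all 3 large lists stood MXD3 and MNT, both MAX partners that oppose MYC. The percentile of MNT was 89.2, 88.2 and 93.5, and that of MXD3 90.8, 88.6 and 84.5.

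MAX itself, the partner that MYC needs to bind DNA, was in the middle of each list, at percentile 55.9, 50.1 and 48.9. FBXW7, part of the ligase that marks MYC for degradation, was at 81.3, 76.9 and 83.8. USP28, a deubiquitinase that counters FBXW7, was at 81.8, 63.5 and 76.2. SKP2, part of another ligase acting on MYC, was lower, at 47.2, 45.2 and 41.1, and MYCBP, which encodes a MYC-binding protein, was the lowest at 24.5, 13.2 and 17.5. TRRAP, a scaffold of histone acetyltransferase complexes that MYC recruits, was at 78.4, 57.8 and 50.3. At TRRAP the MDA-MB-231 list was above both Hs578T lists by more than these differed from each other.

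PVT1 held most of the peak-covered bases of the window in the large lists. In MDA-MB-231 replicate 2 its 33 peaks covered 121.8 kb, in Hs578T replicate 1 its 28 peaks covered 114.8 kb and in Hs578T replicate 2 its 32 peaks covered 109.5 kb, while MDA-MB-231 replicate 1 had none. The mean of the Hs578T pair was 112.1 ± 3.76 kb (SD, n = 2). This was 31.0%, 29.2% and 27.9% of the length of the gene in the large lists, and 55.2%, 56.3% and 54.9% of all covered bases in the window. By covered length PVT1 was in place 1 of 18756 long noncoding RNA genes in each large list. That order is of total kb, which favours long genes.

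**Figure D2:**
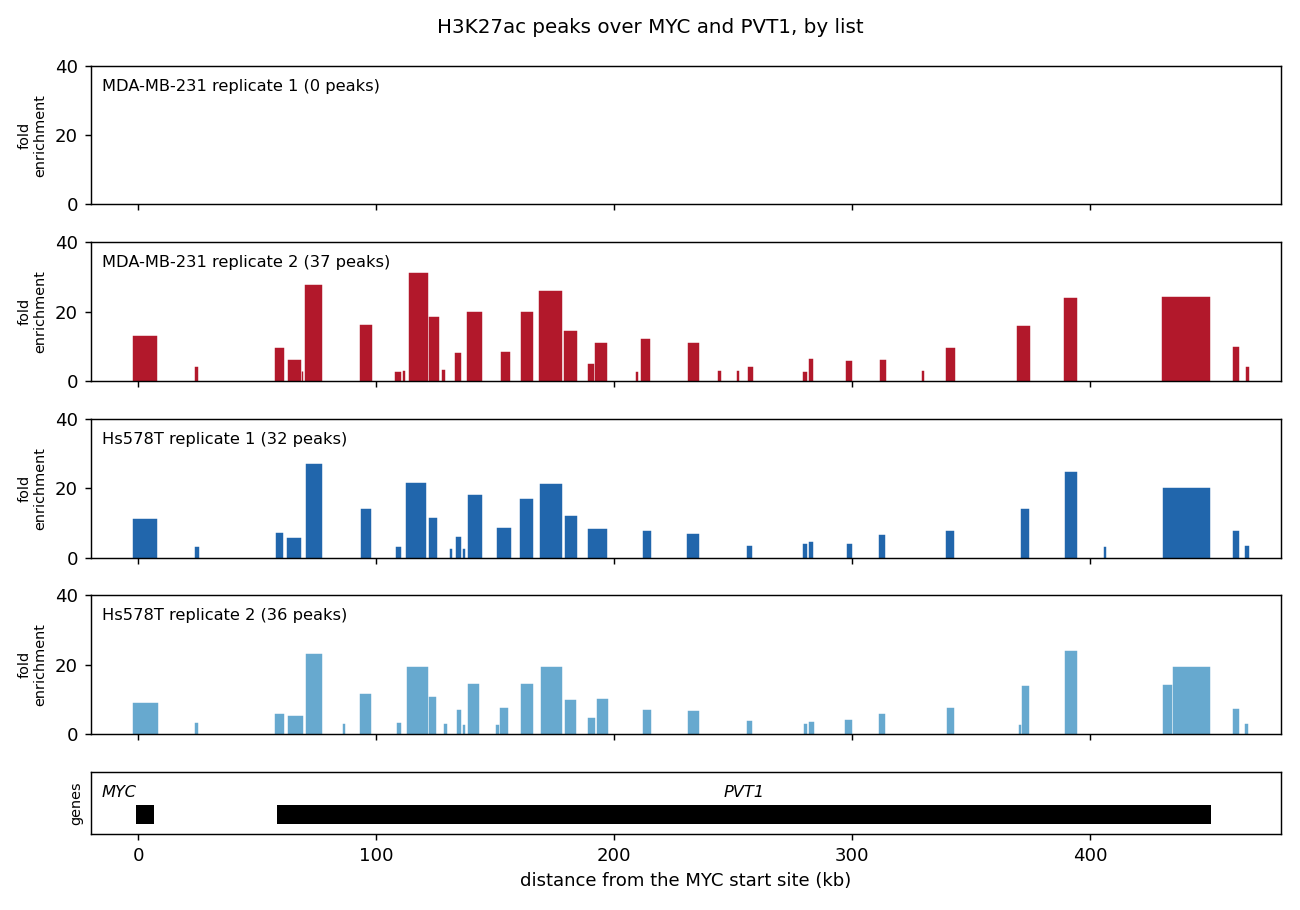
The same peaks from MYC to just beyond the end of PVT1; the horizontal axis is the distance from the MYC start site in kb, bar height is fold enrichment and bar width is peak width. The 3 large lists share a broad peak over MYC, a dense group over the first part of PVT1, a sparser stretch and a peak of up to 19.8 kb at the end of the gene.

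The marked bases were uneven along PVT1. Cut into 4 equal lengths from the start, the gene held 45.3, 35.1, 12.0 and 29.4 kb in MDA-MB-231 replicate 2. The lengths held 43.4, 33.3, 10.8 and 27.3 kb in Hs578T replicate 1, and 42.5, 30.7, 10.6 and 25.7 kb in Hs578T replicate 2. The third length was the least covered and the first the most covered in all 3 lists.

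The PVT1 promoter peak was narrower and ranked lower than that of MYC. In MDA-MB-231 replicate 2 it was chr8:127793954-127797151, 3198 bp wide, with a fold enrichment of 9.61 (percentile 74.0). It was 2811 bp wide with 6.96 (percentile 64.6) in Hs578T replicate 1 and 3076 bp with 5.90 (percentile 61.2) in Hs578T replicate 2. The percentile was thus below that of MYC in each of the 3 lists. The strongest peaks of the gene lay inside it instead. Of the PVT1 peaks, 10, 7 and 9 were among the top 10% of their list by fold enrichment, and 22, 20 and 21 were above the median of their list.

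Merging the peaks of the 3 large lists gave 35 regions over PVT1, of which 25 were called in all 3, where 74.8% of merged regions over all chromosomes were. Only 2 of the 35 overlapped 1 of the 11 exons of the canonical transcript, and 1 had its midpoint in an exon of any PVT1 transcript, that of the promoter. The other midpoints were intronic in PVT1 or lay at its edges. Of the 5 microRNA hairpins inside PVT1, MIR1204 lay under the promoter peak and MIR1207 under a further peak (fold enrichment 6.07, 6.39 and 5.68). MIR1205, MIR1206 and MIR1208 lay outside every peak, with the nearest in the large lists 6352 to 16820 bp away.

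Between the end of MYC and the start of PVT1 lay 51.6 kb with a single weak peak in each large list, at 24 kb. Its fold enrichment was 3.97 in MDA-MB-231 replicate 2, 3.01 in Hs578T replicate 1 and 3.06 in Hs578T replicate 2. The promoters of the neighbouring genes were thus separated by a stretch of few called bases.

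**Figure D3:**
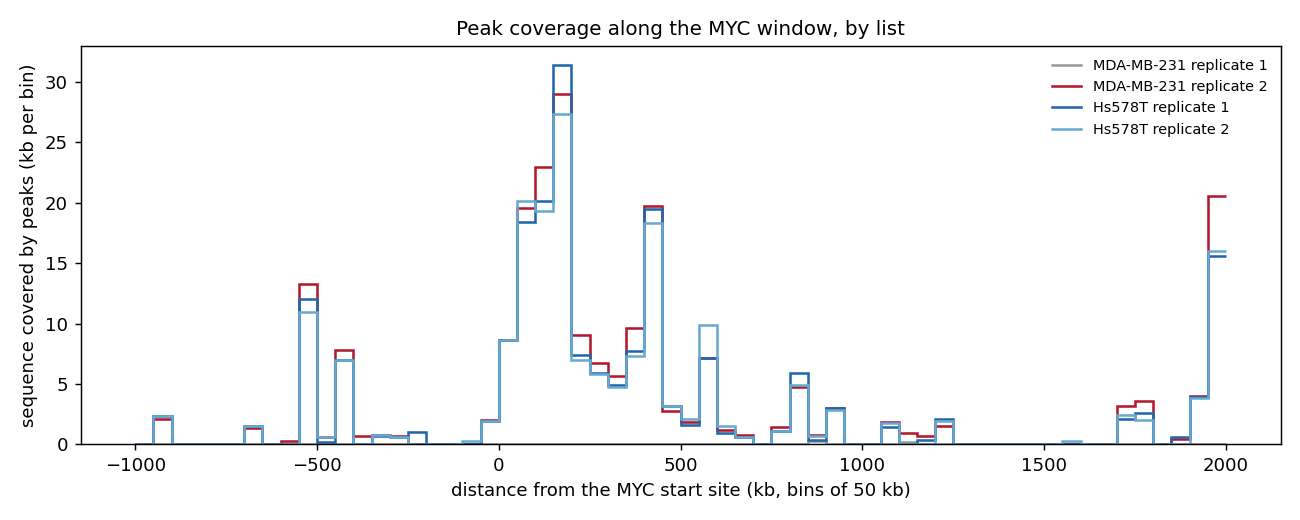
Sequence covered by peaks in bins of 50 kb along the window, by list; the horizontal axis is the distance from the MYC start site in kb and the vertical axis is kb covered per bin. The bin from 150 kb, inside PVT1, is the highest, with 29.0 kb in MDA-MB-231 replicate 2, 31.4 kb in Hs578T replicate 1 and 27.4 kb in Hs578T replicate 2, while MDA-MB-231 replicate 1 has 0.256 kb in the bin from 850 kb and 0.201 kb in that from 1100 kb.

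Outside both genes the covered bases fell into a few islands. The stretch from 1 Mb to 500 kb before MYC held 17.0, 15.9 and 14.8 kb, and the last 500 kb before MYC held 12.5, 11.5 and 11.1 kb. From the end of PVT1 to 1 Mb after MYC there were 23.7, 23.8 and 26.7 kb, and in the last 1 Mb there were 36.7, 28.6 and 28.2 kb. MDA-MB-231 replicate 2 was the highest of the 3 except between PVT1 and 1 Mb. The longest run without a peak began near 1237 kb and spanned 472.3, 485.7 and 348.0 kb.

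The 10 regions with the highest mean percentile of fold enrichment over the 3 large lists included neither promoter. PVT1 held 6 of them, 1 lay before MYC and 3 lay after PVT1. All 10 were called in each large list and 0 in MDA-MB-231 replicate 1.

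The 6 in PVT1 were centred at 73.5, 117, 141, 173, 392 and 440 kb. The first, chr8:127806364-127813077, had fold enrichments of 27.6, 26.9 and 23.1 and was the strongest of the gene in Hs578T replicate 1. The region at 117 kb (chr8:127848768-127857713) had 31.2, 21.5 and 19.4 and was the strongest in MDA-MB-231 replicate 2. The region at 392 kb (chr8:128125466-128130365) had 23.9, 24.6 and 23.9 and was the strongest in Hs578T replicate 2. The gene thus led with a different peak in each list, though all 3 regions stood at percentile 96.9 or higher, rounded, in every one. The region at 173 kb had 26.0, 21.2 and 19.4, and that at 141 kb had 19.97, 18.1 and 14.3.

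The widest region of the window was the one at 440 kb, chr8:128166476-128186273, which ends just before the end of PVT1. It was a single peak of 19769 bp in MDA-MB-231 replicate 2 and of 19288 bp in Hs578T replicate 1, and it was split into 2 peaks in Hs578T replicate 2, the larger of 15184 bp. Its fold enrichment was 24.2, 20.1 and 19.4.

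Of the others, the region before MYC (chr8:127221315-127227868, centre -512 kb) lay in the noncoding genes PCAT1 and CASC19, with fold enrichments of 29.99, 22.1 and 19.3. The region at 819 kb (chr8:128553436-128557902), in the noncoding gene LINC00824 and outside its exons, had 37.0, 22.8 and 19.8. It was the strongest peak of the window in MDA-MB-231 replicate 2, at percentile 99.8, and stood at 97.5 and 97.8 in the Hs578T lists. The last pair, at 1949 and 1973 kb, lay in the noncoding gene ENSG00000285108, with 29.2, 19.4 and 18.6 at the first (chr8:129682275-129688247) and 22.9, 20.3 and 19.0 at the second (chr8:129706351-129712157). CCDC26 also overlaps the first. The percentile of the region at 73.5 kb differed least among the lists of the 10, at 98.8, 98.8 and 98.9.

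Start sites other than those of MYC and PVT1 were mostly of noncoding genes. GENCODE placed 35 start sites in the window, 2 of them protein-coding, MYC and POU5F1B, a retrogene copy of the pluripotency factor OCT4. A peak lay within 1 kb of 11 of the 35 in each large list, where 29.3%, 29.8% and 28.7% of all genes had one, and of 0 in MDA-MB-231 replicate 1 (0.0693% of all genes). POU5F1B had none in any list. The share at the locus was thus near that of all genes.

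Besides MYC, CASC11, PVT1 and MIR1204, the start sites with a peak were those of PRNCR1, the pseudogene ENSG00000271509, the small RNA gene ENSG00000278324, LINC02912, MIR1207, ENSG00000286034 and ENSG00000285108. The strongest of these peaks lay at ENSG00000271509, at -444 kb, with fold enrichments of 17.9, 15.2 and 13.8. The edge of that peak began 595, 760 and 826 bp past the start site. PRNCR1, at -656 kb and named for prostate cancer, was in the middle of each list with 5.34, 5.21 and 5.42. LINC02912, inside PVT1, had 12.1, 7.66 and 6.83, which is percentile 82.8 against 68.7 and 68.2 in Hs578T. ENSG00000286034, at 587 kb, went the other way, with 6.12, 7.64 and 7.26, or percentile 54.5 against 68.5 and 70.9. At both genes the MDA-MB-231 percentile lay outside the pair of Hs578T values.

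Stitching peaks whose gaps were at most 12.5 kb gave 44 clusters in the window in MDA-MB-231 replicate 2, 37 in Hs578T replicate 1, 38 in Hs578T replicate 2 and 2 in MDA-MB-231 replicate 1. Of these, 15, 14, 11 and 0 spanned at least 5 kb. They were not ranked by signal, since no reads were used, and are not called super-enhancers.

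The cluster with the most covered sequence was in the first part of PVT1 in each large list. It spanned 103.2 kb (chr8:127829581-127932773, 14 peaks, 56.6 kb covered) in MDA-MB-231 replicate 2 and 103.0 kb (chr8:127829750-127932747, 13 peaks, 55.6 kb) in Hs578T replicate 1. In Hs578T replicate 2 it spanned 139.2 kb (chr8:127793954-127933128, 19 peaks, 66.8 kb), because there it was joined to the cluster at the PVT1 promoter. By covered length it was in place 20 of 25630 clusters, 34 of 26522 and 18 of 25936 in these lists.

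Stitching the peaks of the 3 large lists together removed that difference and gave 45 joint clusters. The first, from 57.7 to 214.9 kb over PVT1, held 75.4 kb of peaks in MDA-MB-231 replicate 2, 72.9 kb in Hs578T replicate 1 and 69.7 kb in Hs578T replicate 2 (Hs578T 71.3 ± 2.24 kb, SD, n = 2). The second, from 430 to 466 kb at the end of PVT1, held 22.5, 22.4 and 21.2 kb. The third, from 1946 to 1991 kb, held 24.5, 19.5 and 19.8 kb, and the fourth, from -531 to -508 kb, held 13.3, 12.0 and 10.99 kb. The MYC peak itself was the fifth, with 9.70, 9.57 and 9.93 kb. MDA-MB-231 replicate 2 was the highest in the first 4 and between the Hs578T lists at MYC.

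Clusters of at least 5 kb were compared by an overlap of 5 kb. Of the 15 in MDA-MB-231 replicate 2, 12 overlapped one of Hs578T replicate 1 (80.0%, 54.8 to 93.0), against 94% of all such clusters in the list, and 11 overlapped one of Hs578T replicate 2 (73.3%, 48.0 to 89.1), against 90.5%. Of the 14 in Hs578T replicate 1, 12 were shared with MDA-MB-231 replicate 2 (85.7%, 60.1 to 96.0), against 86%, and 11 with Hs578T replicate 2 (78.6%, 52.4 to 92.4), against 88.2%. Of the 11 in Hs578T replicate 2, 10 were shared with either of the other 2 (90.9%, 62.3 to 98.4), against 87.4% in MDA-MB-231 replicate 2 and 93.3% in Hs578T replicate 1. The intervals are wide at this number of clusters, and only that of MDA-MB-231 replicate 2 in each Hs578T list lay below its background.

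**Figure D4:**
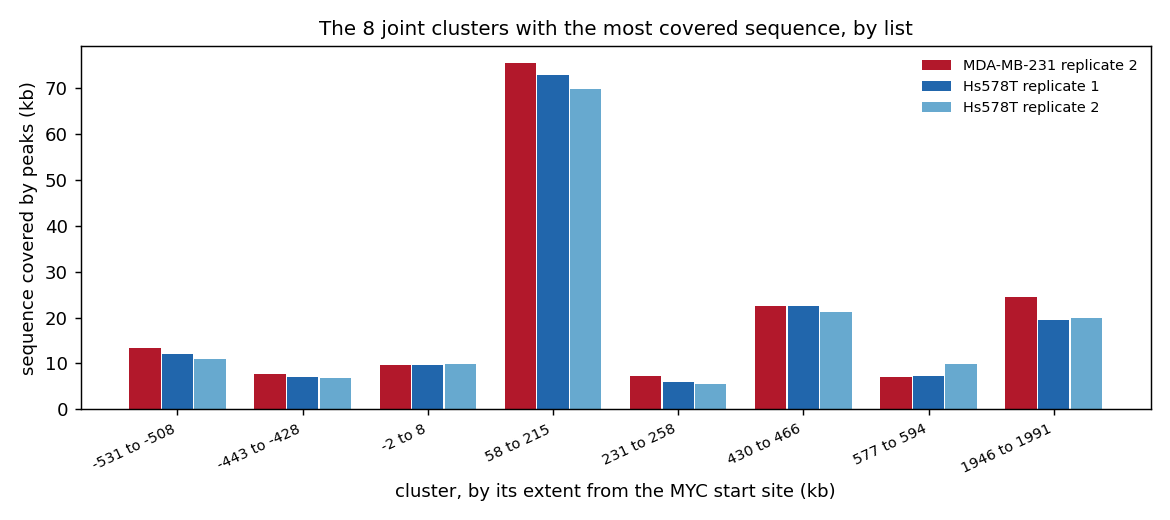
Sequence covered by peaks in kb, by large list, in the 8 joint clusters with the most covered sequence, ordered by their extent from the MYC start site. The cluster from 58 to 215 kb over PVT1 is the tallest, with 75.4 kb in MDA-MB-231 replicate 2, 72.9 kb in Hs578T replicate 1 and 69.7 kb in Hs578T replicate 2.

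The lists of the lines shared most of their window peaks, and the peaks that were not shared were the weak ones. Of the 73 peaks of Hs578T replicate 1, 66 overlapped a peak of Hs578T replicate 2 (90.4%, 81.5 to 95.3), against 88.8% of all peaks of that list. Of the same 73, 68 overlapped a peak of MDA-MB-231 replicate 2 (93.2%, 84.9 to 97.0), against 86.4%. A replicate of the same line and a library of the other line thus matched these peaks about equally well.

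MDA-MB-231 replicate 2 had more window peaks without a counterpart. It matched 68 of its 86 peaks in Hs578T replicate 1 (79.1%, 69.3 to 86.3), against 94.2% of all its peaks, and 67 in Hs578T replicate 2 (77.9%, 68.1 to 85.4), against 91.2%. For Hs578T replicate 2, 69 of 80 peaks matched each of the other 2 large lists (86.25%, 77.0 to 92.1), against 87.9% in MDA-MB-231 replicate 2 and 93.4% in Hs578T replicate 1. By bases, the shared length over the union was 0.8201 within Hs578T, and 0.792 and 0.770 between the MDA-MB-231 list and the first and second Hs578T list.

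The unmatched peaks of MDA-MB-231 replicate 2 were weak for that list. Its peaks were split by fold enrichment into 4 groups of equal size. In the weakest group, 14 of the 30 window peaks (46.7%, 30.2 to 63.9) matched Hs578T replicate 1, against 79.3% over the whole list, and 13 of the 30 (43.3%, 27.4 to 60.8) matched Hs578T replicate 2, against 70.4%. In the strongest 2 groups all 15 and 25 window peaks matched both, and the whole list matched at 99.8% to 100% there.

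Merging the 3 large lists gave 97 regions in the window, of which 63 (64.9%, 55.0 to 73.7) were called in all 3, against 74.8% of merged regions over all chromosomes. A further 15 came from MDA-MB-231 replicate 2 only (15.5%, 9.60 to 24.0), against 3.79% over all chromosomes. Hs578T replicate 1 alone gave 3 (3.09%, 1.06 to 8.70), against 6.69%, and Hs578T replicate 2 alone gave 8 (8.25%, 4.24 to 15.4), against 4.69%. The remaining 8 were in 2 of the lists, and 2 of those were in both Hs578T lists. Regions in 1 list had a highest fold enrichment of 2.38 to 4.19 and a median width of 416.5 bp. Regions in all 3 lists had 2.77 to 37.0 and a median width of 2692 bp. No region with a fold enrichment above 4.19 was missed by any large list.

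The 15 regions of MDA-MB-231 replicate 2 alone were small and scattered. PVT1 held 5, 3 lay before MYC and 7 after PVT1, with fold enrichments of 2.57 to 4.19 and a greatest width of 921 bp. The strongest unshared regions were chr8:128377149-128377529 (381 bp, fold enrichment 4.19, MDA-MB-231 replicate 2), chr8:128858798-128859218 (421 bp, 3.83, MDA-MB-231 replicate 2) and chr8:128226695-128226971 (277 bp, 3.75, Hs578T replicate 2). Whether such weak peaks belong to a line or to 1 library cannot be told apart, since MDA-MB-231 has 1 large list.

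Over regions called in both lists of a pair, the order of fold enrichment was alike. Spearman's rho was 0.967 between MDA-MB-231 replicate 2 and Hs578T replicate 1 (67 regions), 0.951 with Hs578T replicate 2 (65 regions) and 0.978 within Hs578T (65 regions). These are descriptions without a p, since the regions share libraries and neighbours. Most edges were close too, in the regions that were a single peak in both lists (64, 59 and 60 in the same pairs). Their median shift was 164.5, 191 and 116.5 bp, and the largest was 1661, 1878 and 1862 bp.

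**Figure D5:**
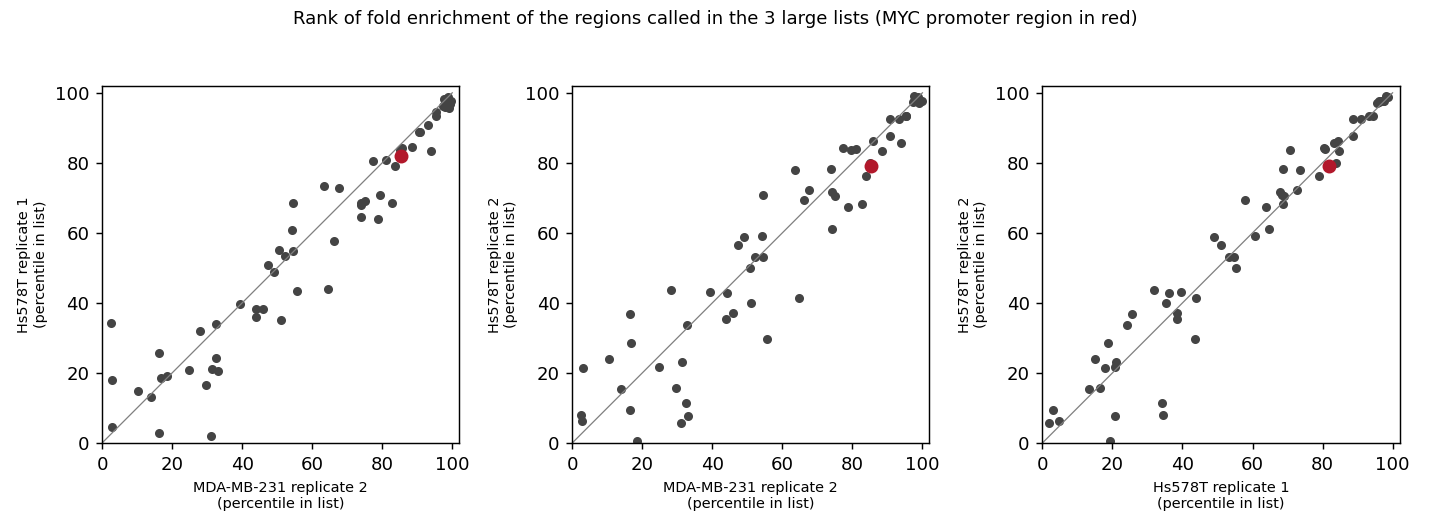
Percentile of fold enrichment within each list for the 63 regions called in all 3 large lists, with each pair of lists in a panel; each point is a region, the MYC promoter region is red and the line marks equal percentiles. Points lie close to the line in all 3 panels, and the MYC promoter lies at 85.2 in MDA-MB-231 replicate 2, 81.9 in Hs578T replicate 1 and 79.0 in Hs578T replicate 2.

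Within this agreement, regions at the locus tended to be placed higher in MDA-MB-231 replicate 2. Of the 63 regions in all 3 lists, 32 had a higher percentile there than in both Hs578T lists (50.8%, 38.8 to 62.7), against 30.9% of such regions over all chromosomes. A further 16 were lower than both (25.4%, 16.3 to 37.3), against 48.2%, and 15 were between them. The shares at the locus thus ran opposite to those of the whole lists. The size of the shifts was small: the median absolute difference in percentile was 4.02 and 5.07 points from the Hs578T lists, and 2.85 points between the Hs578T lists. With 1 large MDA-MB-231 list, this order was not tested as a difference between the lines.

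The largest shifts were at regions outside the strongest of the window. At 692 kb, an exon of LINC00824, the percentile was 31.1 for MDA-MB-231 replicate 2, against 1.93 and 5.76 in the Hs578T lists. At 608 kb, in ENSG00000286034, it was 64.6 against 43.97 and 41.3. At 283 kb in PVT1 it was 55.7 against 43.5 and 29.8, and at 466 kb, after PVT1, 33.0 against 20.7 and 7.70. Each of these shifts was larger than the difference between the Hs578T lists. In the other direction, at 280 kb in PVT1, it was 2.49 against 34.3 and 8.03, and at 109 kb in PVT1 it was 2.94 against 18.0 and 21.5. At 588 kb, in ENSG00000286034, it was 54.5 against 68.5 and 70.9, and at 593 kb in the same gene 16.4 against 25.6 and 36.8. The Hs578T lists differed by 26.3 points at 280 kb, more than the shift there. At 109, 588 and 593 kb they differed by 3.53, 2.39 and 11.2 points, less than the shifts.

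TWEAK acts through factors of the AP-1 and NF-κB families, so their motifs were counted in window peaks more than 2.5 kb from every start site. The AP-1 motif TGAGTCA, read on both strands, was in 37 of 77 such peaks in MDA-MB-231 replicate 2 (48.1%, 37.3 to 59.0), 33 of 63 in Hs578T replicate 1 (52.4%, 40.3 to 64.2) and 34 of 69 in Hs578T replicate 2 (49.3%, 37.8 to 60.8). Over all distal peaks of these lists it was in 51.9%, 51.1% and 50.3%, so over whole peaks the locus was near the background. Per kb of peak there were 0.386, 0.411 and 0.400 motifs, against 0.473, 0.455 and 0.460 in all distal peaks.

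The NF-κB consensus was in 17 of the 77 peaks (22.1%, 14.3 to 32.5), 15 of the 63 (23.8%, 15.0 to 35.6) and 17 of the 69 (24.6%, 15.99 to 35.96), against 17.2%, 17.2% and 16.4%. Each of these backgrounds lay within the interval at the locus. Per kb there were 0.160, 0.145 and 0.150, against 0.159, 0.156 and 0.153. In MDA-MB-231 replicate 1 neither motif was in its 2 window peaks, which were too few to read, against 5.42% and 1.20% of its distal peaks. A motif match describes letters in a peak and not binding.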

How the data were processed

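H3K27ac ChIP-seq peaks of 4 libraries were used, grouped by the line and replicate in the sample titles; the study calls replicates biological, and the labels do not say whether they were separate cultures. The authors trimmed reads with Trimmomatic, mapped them to hg38 with Bowtie2, called peaks per library with MACS2 with input signal subtracted, and removed blacklisted regions with bedtools; versions and settings are not given in the sources used here. Each deposited list gives position, a score (10 times −log10 q, without decimals), a fold enrichment (a ratio over local background) and −log10 p and q. Depth is unknown, and weak peaks move with it.

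Genes came from GENCODE release 44. All listed sequence names and ends lay within the hg38 reference. Overlap was at least 1 bp, a promoter was 1 kb either side of the canonical start site, clusters were stitched at 12.5 kb, and clusters shared when they overlapped by 5 kb. Percentiles were of fold enrichment within a list on chromosomes 1 to 22 and X. Named were all genes with a promoter peak in the window, the MYC network list, the 10 regions of highest mean percentile, the 5 clusters of most covered length, the 3 strongest unshared regions and the 5 genes most like MYC. Regions with the largest shifts in percentile were chosen after their values were seen. The members and lists were chosen with earlier results of these data known. Python 3.11.15, pandas 2.3.3 and scipy 1.17.1 were used, and the counting was tested on simulated peaks. Alternatives were other peak subsets, windows, overlaps, stitching, motif lengths and left-out replicates. Sequence of the locus is not reported here.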

Additional observations from a re-analysis of the deposited data

How the results depend on the processing

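Of 110 alternative values for 20 results, 85 moved by less than the spread between lists or the counting interval, or by less than 1.5 times for counts. For covered kb in MDA-MB-231 that spread was 155.9 kb in the window and 86.1 kb in PVT1, since replicate 1 was nearly empty. No alternative for these counted as moved, not even leaving out replicate 2, which gave 0.457 and 0 kb. The 85 thus include values that such a spread could hardly set apart. With the strongest 50% of each list, window peaks averaged 21.5 in MDA-MB-231 and 42 in Hs578T, Hs578T coverage was 172.6 kb in the window and 104.4 kb in PVT1, and 39 regions were in all 3 large lists. Overlap then rose to 97.5% within Hs578T and to 93.0% for MDA-MB-231 replicate 2 in Hs578T, the MYC peak stood at percentile 60.9 (Hs578T) and 70.5 (MDA-MB-231 replicate 2), AP-1 was in 78.7% and 73.5% of distal peaks (67.1% and 67.8% over all chromosomes), and rho between the lines was 0.942. The mean overlap of MDA-MB-231 replicate 2 with the Hs578T lists (78.5%) was 77.3% with the same number of top peaks per list, 82.2% in a window of 500 kb before to 1 Mb after MYC and 70.9% when 50% of both peaks had to overlap. The narrower window held 157.9 kb in Hs578T. In the central 500 bp of each peak the AP-1 share was 22.7% for Hs578T (30.5% over all chromosomes) and 20.8% for MDA-MB-231 replicate 2 (32.0%). The strongest 50%, the narrower window and the central 500 bp use fewer or shorter peaks by construction. The AP-1 share was above that of all chromosomes with the strongest 50% and below it in the central 500 bp. The reason for this change of direction was not tested. By construction the stricter overlap cannot raise a share. The same number of top peaks was 43353, the size of the MDA-MB-231 replicate 2 list. Only the Hs578T lists lost peaks there, so the share of MDA-MB-231 replicate 2 could not rise either.

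Leaving out a replicate moved MDA-MB-231 values most: 2 to 86 window peaks, 0 to 15 clusters of at least 5 kb, 0 to 14 MYC network promoters and 0% to 79.1% overlap with Hs578T, the low ends all being those of replicate 1 alone. Without replicate 1 the order of the lines turned: MDA-MB-231 was then above Hs578T in window peaks (86 against 76.5), covered kb (220.9 against 201.7), PVT1 kb (121.8 against 112.1) and clusters (15 against 12.5), and below it with both replicates. The share of regions placed higher in MDA-MB-231 replicate 2 than in both Hs578T lists was tried under 3 alternatives chosen after seeing the data. It was 51.3% with the strongest 50% (33.9% over all chromosomes), 58.7% in the narrower window (30.9%) and 50.8% by score (26.2%). No paired analysis was possible because no result comes from a test and replicate numbers only name libraries. The limits are the unknown depth, unmeasured gene copies and 1 usable MDA-MB-231 list.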
